A study of Rattus norvegicus with 9 samples.

Results

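The 9 genes described here encode enzymes, and a regulatory partner of enzymes, that build ether lipids or break down platelet-activating factor (PAF). They are Far1, Gnpat, Agps and Tmem189 on the synthesis side, and Pla2g7, Pafah2, Pafah1b1, Pafah1b2 and Pafah1b3 on the side of PAF breakdown. They were chosen by gene name, and each of the 9 names was found at exactly 1 of the 34890 loci in the expression table. RNA of the ipsilateral lumbar spinal cord of male Sprague Dawley rats was measured in 3 groups, with 3 samples in each. The JA group had a sham operation and received saline. The SNI group had spared nerve injury, in which the tibial and common peroneal branches of the sciatic nerve are tied and cut while the sural branch is left, and also received saline. The PLM group had the same injury and received paeoniflorin (20.65 mg/mL) with liquiritin, both small molecules from medicinal plants, by gavage for 21 days. The labels give liquiritin as 3.98, 3.99 and 3.100 mg/mL for PLM replicates 1, 2 and 3, while the study's methods give 3.98 mg/mL for the whole group. No transgene or deletion was used in any group, and the age of the rats is not given in the sources used here. The sources do not say whether a sample held tissue of a single rat, so the p-values measure only the spread between these samples.

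Ether lipids are phospholipids in which a fatty alcohol is joined to the glycerol backbone by an ether bond. Their synthesis starts in the peroxisome, where Gnpat acylates dihydroxyacetone phosphate and Agps exchanges that acyl chain for a fatty alcohol made by Far1, and it ends in the endoplasmic reticulum, where Tmem189 (also called Peds1) introduces the double bond that makes a plasmalogen, a major lipid of myelin. PAF is an ether phospholipid that carries an acetyl group and acts on cells through the receptor Ptafr. PAF acetylhydrolases remove the acetyl group and so inactivate it: Pla2g7 is the secreted enzyme, Pafah2 works inside the cell, and Pafah1b2 and Pafah1b3 are the catalytic subunits of a brain enzyme whose other subunit, Pafah1b1 (Lis1), also regulates the motor protein dynein.

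RefSeq promoter sequences (build GRCr8) were matched for 6 of the 9 genes. The 250 bases upstream of the annotated start are shown for Pla2g7, the gene with the largest difference between PLM and SNI, for Gnpat, a synthesis gene whose lower values depended on the scale, and for Pafah2, the intracellular counterpart of Pla2g7. The intervals are chr9:24901748-24901997 on the minus strand for Pla2g7, chr19:69719457-69719706 on the plus strand for Gnpat and chr5:151896945-151897194 on the plus strand for Pafah2. All are written 5′ to 3′ on the strand of the gene.
Pla2g7: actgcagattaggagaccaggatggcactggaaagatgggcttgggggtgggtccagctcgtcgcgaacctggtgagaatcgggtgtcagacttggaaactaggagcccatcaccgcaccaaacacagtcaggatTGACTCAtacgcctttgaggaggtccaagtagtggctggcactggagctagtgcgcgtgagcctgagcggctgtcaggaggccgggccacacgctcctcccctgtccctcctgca
Gnpat: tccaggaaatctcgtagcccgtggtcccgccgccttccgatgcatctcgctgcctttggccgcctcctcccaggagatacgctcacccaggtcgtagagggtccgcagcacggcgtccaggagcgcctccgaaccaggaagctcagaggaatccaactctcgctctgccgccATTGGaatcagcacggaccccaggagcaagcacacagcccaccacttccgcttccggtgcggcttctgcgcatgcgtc
Pafah2: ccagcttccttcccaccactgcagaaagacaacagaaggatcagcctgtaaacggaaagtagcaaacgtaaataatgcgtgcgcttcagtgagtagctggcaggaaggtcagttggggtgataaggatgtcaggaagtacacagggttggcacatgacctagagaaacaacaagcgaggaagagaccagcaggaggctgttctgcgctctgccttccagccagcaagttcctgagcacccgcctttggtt
Capitals mark the matches to 6 motifs, each searched on both strands. The letters of the TATA box were TATAAA, and 12.9% of 33469 promoter windows of the same length held them. For the GC box the letters were GGGCGG, found in 30.5% of windows. The E-box was searched as CACGTG, found in 5.59% of windows. The CRE was searched as TGACGTCA, found in 1.59% of windows. The Pla2g7 window held an AP-1 site, TGACTCA, on the strand of the gene and 115 bases upstream of its start. These letters were present in 4.05% of all windows. The Gnpat window held a CCAAT box read on the opposite strand, 78 bases upstream, and CCAAT was present in 34% of all windows. The Pafah2 window matched none of the 6 motifs. The GC content was 60% for Pla2g7, 64.4% for Gnpat and 52.4% for Pafah2. Such matches describe the letters only, and no binding was measured.

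The values are TPM, a measure of transcript abundance corrected for transcript length and for the total of the sample, so levels can be compared between genes but carry no read depth. Some features of the whole set touch the results below. The 13 mitochondrial protein genes took 29.1% ± 3.75 of the TPM of JA samples, 24.6% ± 1.3 of SNI samples and 32.0% ± 0.768 of PLM samples (SD, n = 3 each), and the other genes share what is left. The median log2(TPM + 1) of a sample lay between 3.47 and 3.53 in SNI and between 3.18 and 3.30 in PLM. Each comparison is therefore given on the deposited values and again after each sample was centred on its own median. JA replicate 3 stood apart from the other JA samples, with the lowest summed TPM of 12 astrocyte markers in its group (2020.7, against 4053.0 in the highest JA sample) and the highest summed TPM of 4 Schwann cell markers (6167.2, against 58.9 in the lowest JA sample) and of 6 blood cell markers (9242.7). Markers of neurons, oligodendrocytes, astrocytes and microglia were all above 0 in every sample.

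In level averaged over all samples, 4 of the 9 genes stood above the others. Pafah1b1 averaged 101 TPM over the 9 samples, Tmem189 99.2, Pafah1b2 96.4 and Pla2g7 89.1, which placed them between the 91.7 and 92.8 percentile of all loci that averaged 1 TPM or more. Neighbours among these 4 changed places from sample to sample, since Pafah1b1 exceeded Tmem189 in 5 of 9 samples, Tmem189 exceeded Pafah1b2 in 4, and Pafah1b2 exceeded Pla2g7 in 4. The place of Pla2g7 depended on the group: its mean of 129.5 TPM was the highest of the 9 genes in SNI, while in PLM its mean of 46.0 TPM lay nearer to Gnpat (32.7 TPM) than to Tmem189 (77.3 TPM). Gnpat followed at 36.1 TPM, and Pla2g7 exceeded it in all 9 samples. Far1 averaged 18.5 TPM, Pafah1b3 14.96 TPM and Agps 11.4 TPM, and their order was not the same in every sample. Pafah2 had the lowest level at 3.82 TPM, under Agps in all 9 samples. The coefficient of variation over the 9 samples was 46.2% for Pla2g7 and 30.7% for Agps, and only 10.3% for Gnpat and 10.6% for Pafah1b2.

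**Figure D1:**
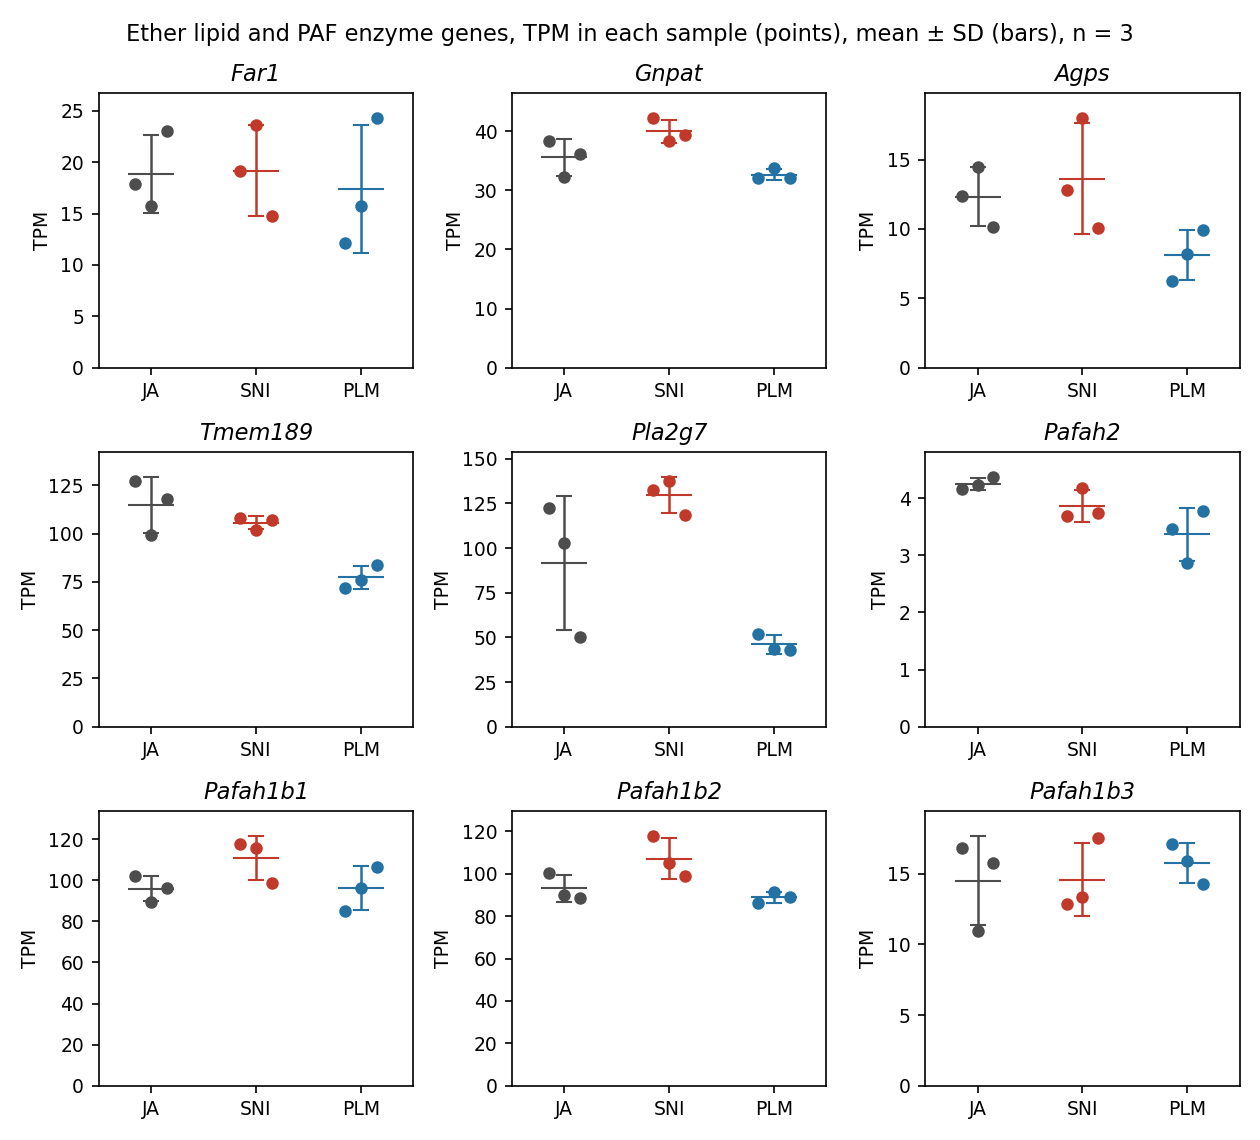
TPM of each of the 9 genes on the vertical axis, from 0, in the JA, SNI and PLM groups. Points are samples and bars are the mean ± SD of 3 samples. All 3 PLM samples of Pla2g7 lie at 52.2 TPM or lower and all 3 SNI samples at 118 TPM or higher, while the Pafah1b3 groups overlap.

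The comparison of PLM with SNI asks what differed in injured cord after the drugs. On the deposited values 3 of the 9 genes were lower in PLM at a Benjamini-Hochberg adjusted p under 0.05 (limma), namely Pla2g7, Tmem189 and Gnpat, and none was higher. The background was high, since 13.6% of the 15474 loci tested were called lower in this comparison and 13.9% were called in either direction. On median-centred values Pla2g7 alone remained called, against 0.814% of all loci. The study's methods ask for an unadjusted p under 0.05 together with a log2 difference above 1 in either direction. By these thresholds Pla2g7 was again the single gene of the 9, against 1.65% of all loci. The study used them with DESeq2, while here they were applied to the limma fit, so the calls are not those of the study. Over the 9 genes the median log2 fold change stood at -0.26 on deposited values, with 8 of 9 below 0, beside a median of -0.21 over all loci, of which 85.0% were below 0. After centring, the median was -0.02 for the 9 genes and 0.04 for all loci.

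Pla2g7, the secreted acetylhydrolase, showed the largest difference of the 9 genes between PLM and SNI. Its TPM was 133, 138 and 118 in the SNI samples, and 52.2, 43.3 and 42.7 in the PLM samples. The groups did not overlap, and the PLM mean of 46.0 ± 5.32 was 64.5% lower than the SNI mean of 130 ± 10.01 (SD, n = 3 each). The log2 fold change was -1.48 with a standard error of 0.10 (95% interval -1.72 to -1.23), with an adjusted p of 0.00396 in limma. On median-centred values it was -1.23 (standard error 0.12, interval -1.52 to -0.94, adjusted p in limma 0.0263). Leaving out any of the 6 samples kept the call on deposited values, with adjusted p between 0.0063 and 0.0297. On centred values the call was kept only when PLM replicate 1 was left out, with adjusted p between 0.0143 and 0.119 over the 6 omissions. In bulk tissue, fewer cells of a type and less RNA per cell cannot be told apart.

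Pla2g7 moved closely with markers of astrocytes across the 9 samples. In PLM against SNI all 12 astrocyte markers were called lower on deposited values, with log2 fold changes from -1.95 to -0.80, and 9 of 12 were called on centred values. Their summed TPM was 3542.3 to 3967.1 in SNI and 1661.2 to 2028.9 in PLM, and no marker was at 0. In log2(TPM + 1), Pla2g7 spanned 1.67 over the 9 samples and the marker mean spanned 1.69. The difference of Pla2g7 from the marker mean of its own sample spanned only 0.22, with a mean of 0.22 ± 0.13 for JA, 0.29 ± 0.06 for SNI and 0.25 ± 0.07 for PLM (SD, n = 3 each). The 8 microglia markers summed to 359.4 to 402.4 TPM in SNI and 362.0 to 415.0 in PLM, which overlapped. Of these, Tmem119 alone was called on deposited values, at -0.43 (adjusted p in limma 0.0378). On centred values none of the 8 was called, 7 lay above 0 and 6 separated the groups, as did 23.8% of all loci. Other summed levels that did not overlap on deposited values were lower in PLM for the 12 neuron markers (4847.8 to 6065.6 TPM in SNI, 4180.1 to 4827.8 in PLM), of which 12 lay below 0 on deposited and 6 on centred values. They were higher in PLM for the 8 oligodendrocyte markers (46078.7 to 48247.8 in SNI, 49807.5 to 50939.6 in PLM) and for the 4 endothelium markers (290.9 to 308.5 in SNI, 311.2 to 354.5 in PLM). The last 2 sums rest mainly on their most abundant genes, Mbp and Cldn5. Gene by gene, 4 of the 8 oligodendrocyte and 2 of the 4 endothelium markers had a log2 fold change below 0 on deposited values, with medians of -0.05 and 0.03. On centred values none of the oligodendrocyte or endothelium markers lay below 0, with medians of 0.20 and 0.28. On that scale 6 of the 8 and 3 of the 4 separated the groups, beside 23.8% of all loci. No gene of the neuron, oligodendrocyte or endothelium lists was called on either scale. The summed TPM of the 4 Schwann cell markers and of the 4 meninges and fibroblast markers overlapped between SNI and PLM. Their median log2 fold changes were -0.64 and -0.61 on deposited values and -0.39 and -0.36 on centred values. On both scales 4 and 3 of these markers lay below 0, and none was called. The 6 blood cell markers summed to 3185.7 to 5683.3 TPM in SNI and 6180.9 to 8469.8 in PLM, nearly all of it from the haemoglobin genes Hba-a1 and Hbb. The leukocyte markers of that list were not higher in PLM, with means of 1.16 TPM in SNI and 1.15 in PLM for Ptprc and of 32.5 and 29.1 for S100a8. The part of these cell types in the Pla2g7 difference was not tested.

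**Figure D2:**
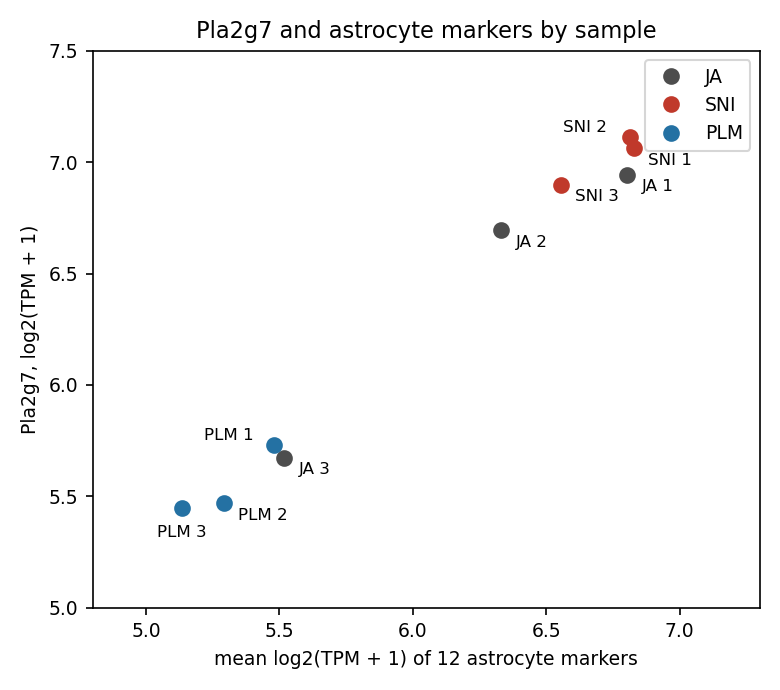
Pla2g7 on the vertical axis against the mean of 12 astrocyte markers on the horizontal axis, both in log2(TPM + 1), with 1 point for each of the 9 samples. The SNI samples lie at the upper right and the PLM samples at the lower left, with JA replicate 3 among the PLM samples.

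Among named loci averaging 5 TPM or more, those whose centred values were most like Pla2g7 over the 9 samples were Gpt2 (Pearson's r 0.998), Mlc1 (0.997), Ndrg2 (0.996), Prdx6 (0.995) and Igsf1 (0.995). These values describe the pattern among 9810 loci compared, over samples that share the same 3 groups. Between the 9 genes themselves the 36 pairs had a median r of -0.04 on the same scale. The lowest was -0.84 for Agps with Pafah1b3 and the highest was 0.73 for Far1 with Pafah1b1, again as a description.

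Of the synthesis genes, Tmem189, the plasmalogen-forming desaturase, was lower in PLM on the deposited scale. Its TPM was 108, 102 and 107 in SNI and 72.1, 76.0 and 83.8 in PLM. The groups did not overlap, and the log2 fold change was -0.45 (standard error 0.07, interval -0.62 to -0.28, adjusted p in limma 0.0195). After centring it was -0.20 with an adjusted p of 0.173 in limma, and the groups still did not overlap. Without a sample the adjusted p on deposited values ranged from 0.0317 to 0.0794, and the call was kept only without PLM replicate 3 or without SNI replicate 2.

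Gnpat, the peroxisomal acyltransferase, was 42.2, 38.3 and 39.4 TPM in SNI and 32.1, 33.7 and 32.2 TPM in PLM. No PLM sample reached the lowest SNI sample. The log2 fold change was -0.28 (standard error 0.06, interval -0.43 to -0.13, adjusted p in limma 0.0380), close to the median of all loci. On centred values it was -0.04 with an adjusted p of 0.811 in limma. The deposited call was kept only without SNI replicate 2, with adjusted p from 0.0485 to 0.125 over the 6 omissions.

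Agps, which forms the ether bond, was 12.8, 18.0 and 10.1 TPM in SNI and 6.27, 8.16 and 9.93 TPM in PLM. The highest PLM sample was just under the lowest SNI sample, and the SNI samples themselves were widely spread. The log2 fold change of -0.67 had an interval from -1.22 to -0.11 and an adjusted p of 0.0934 in limma, and centring gave -0.42 with an adjusted p of 0.381. Far1, the reductase that supplies the fatty alcohol, was 19.1, 23.6 and 14.8 TPM in SNI and 12.1, 15.8 and 24.3 TPM in PLM. Its groups overlapped fully, and its log2 fold change was -0.17 on deposited values (interval -0.81 to 0.48, adjusted p in limma 0.664) and 0.08 on centred values (adjusted p 0.898).

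The other PAF acetylhydrolase genes did not pass the test. Pafah2, the intracellular enzyme, was 3.68, 4.18 and 3.73 TPM in SNI and 3.46, 2.86 and 3.77 TPM in PLM, which overlapped. Its log2 fold change was -0.16 (interval -0.44 to 0.12, adjusted p in limma 0.344), and 0.09 after centring. Pafah1b2, a catalytic subunit, was 118, 105 and 98.9 TPM in SNI and 86.0, 91.4 and 89.2 TPM in PLM. These groups did not overlap, with a log2 fold change of -0.26 (interval -0.45 to -0.08, adjusted p in limma 0.0641) that became -0.02 after centring. Pafah1b3, the other catalytic subunit, was 12.9, 13.4 and 17.5 TPM in SNI and 17.1, 15.9 and 14.3 TPM in PLM. It had the only positive deposited value of the 9 genes, a log2 fold change of 0.11 (interval -0.20 to 0.43, adjusted p in limma 0.540), and 0.36 after centring (adjusted p 0.303). Pafah1b1, the dynein regulator, was 118, 116 and 98.5 TPM in SNI and 85.2, 96.5 and 107 TPM in PLM, with overlap. Its log2 fold change was -0.20 (interval -0.46 to 0.06, adjusted p in limma 0.211), and 0.04 after centring (interval -0.16 to 0.25).

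Counting groups without overlap, 5 of the 9 genes separated PLM from SNI on deposited values (Pla2g7, Tmem189, Gnpat, Agps and Pafah1b2), which is 55.6% beside 43.5% of all loci. On centred values Pla2g7 and Tmem189 separated the groups, which is 22.2% beside 23.8% of all loci.

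**Figure D3:**
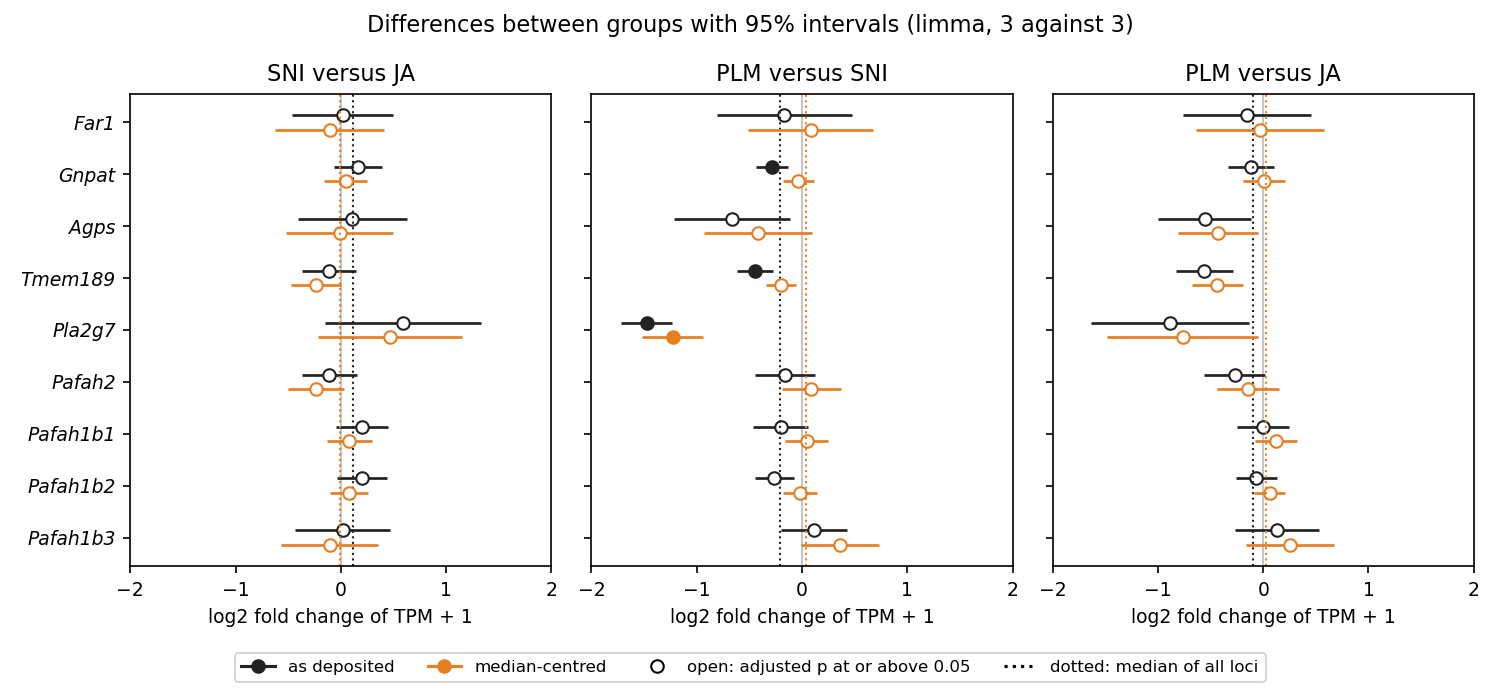
Log2 fold change of each of the 9 genes, with 95% intervals from limma, in the 3 comparisons on deposited and on median-centred values. In PLM against SNI, Pla2g7 lies at -1.48 on deposited and -1.23 on centred values, while Gnpat moves from -0.28 to -0.04.

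The comparison of SNI with JA asks what differed after the injury itself. None of the 9 genes was called by limma on either scale, none had an unadjusted p under 0.05, and 0% of the 15557 loci tested were called. Pla2g7 had the largest difference, with 122, 103 and 50.03 TPM in JA against the SNI values given above. JA replicate 1 lay within the SNI range, JA replicate 2 below it and JA replicate 3 within the range of the PLM samples. The log2 fold change was 0.59 (standard error 0.31, interval -0.15 to 1.33, adjusted p in limma 0.614), and without JA replicate 3 it was 0.21 (adjusted p 0.836). Agps was 12.4, 14.4 and 10.2 TPM in JA, Far1 17.9, 15.7 and 23.1 TPM, and Gnpat 38.4, 32.2 and 36.1 TPM, and each of these ranges overlapped with SNI. Tmem189 was 127, 99.1 and 118 TPM in JA, which also spanned the SNI values. For the subunits of the brain enzyme, Pafah1b1 was 102, 89.6 and 96.3 TPM, Pafah1b2 was 101, 90.3 and 88.5 TPM and Pafah1b3 was 16.9, 11.0 and 15.7 TPM in JA. Other than Pla2g7, log2 fold changes ran from -0.11 for Tmem189 and Pafah2 to 0.20 for Pafah1b1 and Pafah1b2, beside a median of 0.12 over all loci. On deposited values no gene of the 9 separated the groups, against 13.8% of all loci. Pafah2, with 4.16, 4.22 and 4.36 TPM in JA, separated them after centring only, at -0.23 (10.9% of all loci did).

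The comparison of PLM with JA sets treated injured cord beside sham cord, and it shares its samples with the other comparisons. No gene of the 9 was called by limma on either scale, beside 0.0195% of 15349 loci on deposited and 0.013% on centred values. Tmem189, Agps and Pla2g7 had the lowest unadjusted p in limma of the 9, each under 0.05. The share of all loci under that level is not given here, so their number has no background to stand beside. Tmem189 was lower in every PLM sample than in any JA sample, with a log2 fold change of -0.56 (standard error 0.11, adjusted p in limma 0.276) and -0.44 after centring (adjusted p 0.454). Agps also separated the groups on both scales, at -0.55 (standard error 0.19, adjusted p in limma 0.374) and -0.43 after centring (adjusted p 0.494). Pla2g7 differed by -0.89 (standard error 0.32, interval -1.64 to -0.14, adjusted p in limma 0.388), and JA replicate 3 at 50.03 TPM lay inside the PLM range. Without that sample the value was -1.27 with an adjusted p of 0.0552. Pafah2 separated the groups on deposited values only, with a log2 fold change of -0.27. In all, 3 of 9 genes (33.3%) had no overlap on deposited values beside 17.7% of all loci, and 2 of 9 on centred values beside 16.4%. Gnpat, Far1, Pafah1b1, Pafah1b2 and Pafah1b3 lay between -0.15 and 0.13 on deposited values.

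Pairs of genes were also compared within each sample. The ratios given are of TPM, while the differences and tests are of log2 ratios taken after 1 was added to each TPM, so that the differences are not exactly those of the printed ratios. Pla2g7 over Pafah2, the secreted over the intracellular enzyme, was 36.1, 32.9 and 31.7 in SNI and 15.1, 15.1 and 11.3 in PLM. The groups did not overlap, with a difference of -1.32 in mean log2 ratio and a two-sided exact permutation p of 0.10, the smallest that 3 against 3 allows. With 0.1 added in place of 1 the difference was -1.29, with the same p. In JA the ratio was 29.4, 24.3 and 11.5, which lay below SNI without overlap (SNI minus JA 0.70, exact permutation p 0.10) and overlapped with PLM. Without JA replicate 3 the SNI minus JA difference was 0.30, and the PLM minus JA difference moved from -0.62 to -1.01. Without JA replicate 1 the PLM minus JA difference was -0.35. Pafah1b2 over Pafah1b3, the pair of catalytic subunits, was 9.12, 7.88 and 5.64 in SNI and 5.03, 5.75 and 6.23 in PLM (difference -0.38, exact permutation p 0.30), and the difference was -0.23 without SNI replicate 1. Agps over Gnpat, the enzymes of successive steps, was 0.304, 0.469 and 0.256 in SNI and 0.196, 0.242 and 0.309 in PLM (difference -0.38, exact permutation p 0.30). Without SNI replicate 2 that difference was -0.15, and without PLM replicate 1 it was -0.24. It was -0.43 with 0.1 added in place of 1. Over the 9 such tests the lowest Benjamini-Hochberg adjusted value was 0.45.

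The remaining genes of these pathways were taken from 4 lists written from general knowledge. Of 12 further ether lipid genes, 11 were tested in PLM against SNI and 3 were called lower on deposited values by limma, beside 13.6% of all loci, with a list median of -0.34 beside -0.21 for all loci. These were Pcyt2, which makes the activated ethanolamine used for plasmalogens (-0.34, adjusted p 0.0274), Etnk1, an ethanolamine kinase (-0.38, adjusted p 0.0443), and Chpt1, a cholinephosphotransferase (-0.75, adjusted p 0.0275), the last named after its values were seen. Chpt1 was 20.8, 26.1 and 18.1 TPM in SNI and 11.5, 11.7 and 13.8 TPM in PLM. Dhrs7b, the reductase that follows Agps, differed by -0.16 (adjusted p 0.267), and Cept1, a choline and ethanolamine phosphotransferase, by -0.18 (adjusted p 0.0777). Tmem86b, a lysoplasmalogen hydrolase, was not tested, with a mean of 0.557 TPM. On centred values no gene of this list was called, and the lowest adjusted p was 0.149.

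Genes that form PAF or receive it gave 1 call, in the lower direction, among the 6 tested of 7 listed, beside 13.6% of all loci called lower. Pla2g6, a calcium-independent phospholipase A2, was lower in PLM on deposited values (-0.42, adjusted p in limma 0.0340), and was at -0.17 after centring (adjusted p 0.380). Pla2g4a, the cytosolic phospholipase A2 that releases the PAF precursor, was 8.09, 10.5 and 9.91 TPM in SNI and 13.3, 9.88 and 13.2 TPM in PLM. Its groups overlapped on deposited values, with a log2 fold change of 0.32 (adjusted p in limma 0.160), and did not overlap on centred values, with 0.57 (adjusted p 0.164). Lpcat1, an acyltransferase that can also acetylate the PAF precursor, differed by -0.43 in log2 (adjusted p in limma 0.0559). Its inducible relative Lpcat2, named outside the rule, had -0.14 (adjusted p 0.385). Ptafr, the PAF receptor, was 5.32, 4.97 and 4.69 TPM in SNI and 5.36, 4.64 and 5.19 TPM in PLM, a log2 fold change of 0.02 (adjusted p 0.909). Pla2g4c was listed at 0 in all 9 samples.

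Among 12 genes of dynein and its partners, with which Pafah1b1 works, 3 were called lower in PLM against SNI on deposited values (Dctn1 -0.38, Dync1h1 -0.36 and Dync1li1 -0.37), and the list median equalled that of all loci at -0.21. Of 13 tested genes for building peroxisomes, the site of Gnpat and Agps, 3 were called lower (Pex11a -0.64, Pex5 -0.45 and Pex13 -0.36), with a list median of -0.22. Both counts stand beside 13.6% of all loci called lower. These 6 were named after their values were seen. On centred values none of the genes in these 2 lists was called, and the lowest adjusted p in limma was 0.0866 for the dynein list and 0.213 for the peroxisome list. In SNI against JA and in PLM against JA, no gene of any of the 4 lists was called on either scale.

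**Figure D4:**
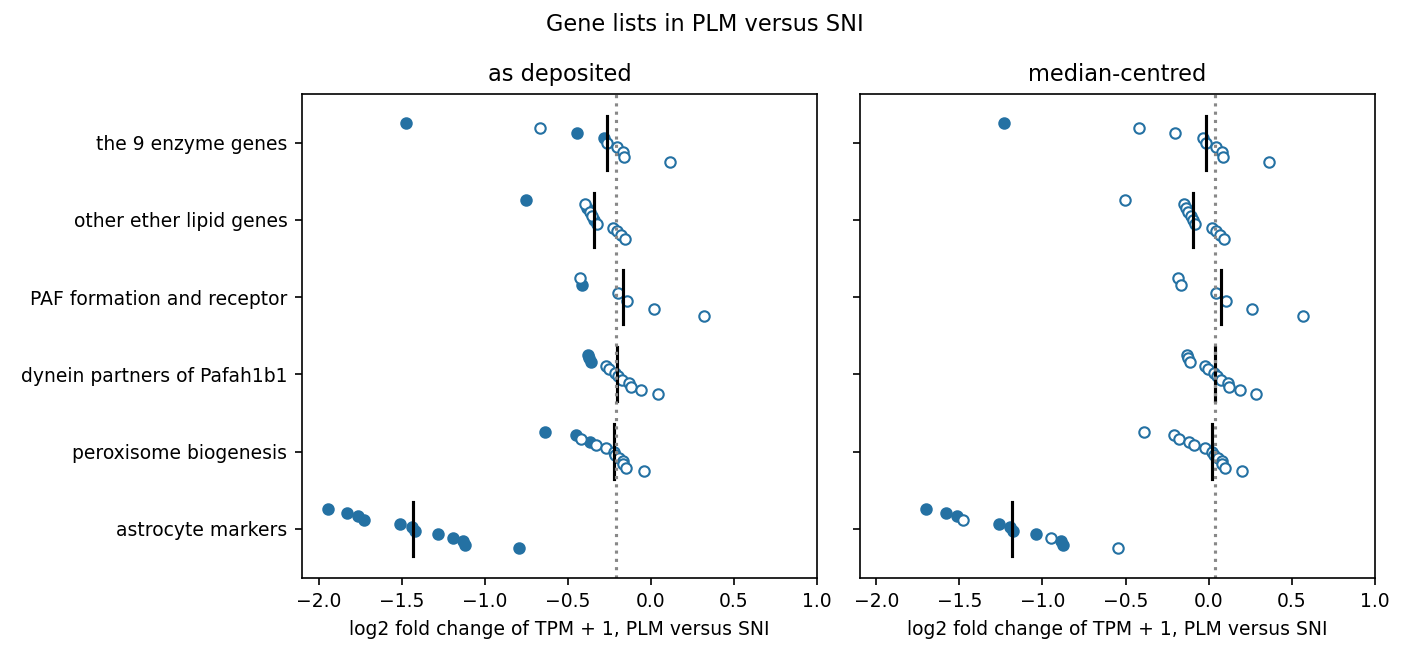
Log2 fold change of PLM against SNI for the 9 genes, the 4 lists of pathway genes and the 12 astrocyte markers, on deposited and on median-centred values. Each point is a gene, filled points have an adjusted p under 0.05, the black line is the median of the list and the dotted line is the median of all loci tested. On the centred scale the filled points are Pla2g7 and 9 of the astrocyte markers.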

How the data were processed

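RNA-seq was run on 9 samples, grouped by the GEO sample names into JA, SNI and PLM. The authors trimmed reads with fastp (version 0.19.5), mapped them with HISAT2 and deposited 1 table of TPM values computed with StringTie, with 2 decimals. The columns sum to 999999.6 to 1000000.4, which gave the unit. Read depth cannot be recovered from TPM, so depth and counting error are unknown and count tests were not used. The submitters' processing notes name the build GRCh38.p13, which is human, while the row identifiers are rat, so no coordinate was taken from the table. Every sample column was mapped to a sample.

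Loci averaging 1 TPM or more in the 6 samples of a comparison were fitted on log2(TPM + 1), a scale that understates changes of low genes, with limma version 3.58.1 (variance trend, no covariate) in R version 4.3.3, and p-values were adjusted by Benjamini-Hochberg over all loci. A gene was called at an adjusted p under 0.05. Centred values had the sample's median over the loci tested subtracted. Log2 ratios of TPM + 1 were compared by exact permutation. The fit was also run on simulated data to check that it returned the sign of differences put in, and its error rate is not reported here. No pair of samples held the same values.

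The 9 genes and all lists were chosen with earlier results of these data known. All 9 were named. Of the pathway lists, genes called on centred values and, for the ether lipid and PAF lists, the 4 with the highest mean TPM and those near 0 were named. The 5 loci most like a gene called on centred values were also named. Alternatives were a pseudocount of 0.1, no filter or a mean of 5 TPM, other call thresholds, quantile normalization, values without mitochondrial genes, a joint fit of the 3 groups, a block on the replicate number, and omission of each sample in turn. The omissions and the block on centred values were chosen after seeing the data. The promoter table was RefSeq's for GRCr8. Protein sequences were not used here, and 1 gene of a pathway list is not reported here.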

Additional observations from a re-analysis of the deposited data

How the results depend on the processing

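In PLM against SNI, 3 of the 9 genes were called on deposited values. The count was 1 on median-centred values, with quantile normalization, without mitochondrial genes, in a fit of all 9 samples, with the replicate number as a block and at the study's thresholds. It ranged from 1 to 3 when a sample was left out. Pla2g7 was called in each of these settings, with a log2 fold change of -1.57 to -1.42 when a sample was left out. The share of all loci called was 13.9% on deposited values and lower in each of these settings. It was 0.814% after centring, 1% with quantile normalization and 1.76% without mitochondrial genes. In the fit of all 9 samples it was 3.04%, with the block 0.982% and at the study's thresholds 1.65%. When a sample was left out it ranged from 1.78% to 9.7%. On centred values the count of 1 ranged from 0 to 1 when a sample was left out, with Pla2g7 between -1.35 and -1.15. The centred count was 0 with the replicate block (Pla2g7 adjusted p in limma 0.0974). Of all loci, 0% to 0.547% were called on centred values when a sample was left out, and 0% with the block. With the block on deposited values the adjusted p in limma was 0.0211 for Pla2g7, 0.151 for Gnpat and 0.101 for Tmem189. Samples of the same number correlated between -0.05 and 0.13 in their deviations from the group mean over 9 pairs, and not every sample correlated best with its own number, so the numbers were not taken to pair the samples.

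Of 375 alternative values for the log2 fold changes of the 9 genes, 324 kept their direction and their side of the threshold. Another 19 lost the call and 32 changed sign. Only Pla2g7, Tmem189 and Gnpat in PLM against SNI had a call to lose, so most of the 324 were uncalled values that stayed uncalled. All 19 lost calls were of Gnpat or Tmem189. Those that changed sign had not been called in the comparison concerned. In PLM against SNI centring gave 0.081 for Far1, 0.044 for Pafah1b1 and 0.087 for Pafah2, and quantile normalization gave 0.071 for Far1 and 0.064 for Pafah2. In SNI against JA centring gave -0.010 for Agps, -0.10 for Far1 and -0.10 for Pafah1b3, quantile normalization gave -0.012, -0.10 and -0.11, and leaving out mitochondrial genes gave -0.070 for Far1 and -0.069 for Pafah1b3. In PLM against JA centring gave 0.0077 for Gnpat, 0.12 for Pafah1b1 and 0.060 for Pafah1b2, quantile normalization gave 0.069 for Pafah1b1 and 0.0077 for Pafah1b2, and leaving out mitochondrial genes gave 0.055 for Pafah1b1. When a sample was left out, PLM against SNI ranged from -0.42 to 0.051 for Far1. SNI against JA ranged from -0.094 to 0.29 for Agps, -0.14 to 0.18 for Far1, -0.16 to 0.13 for Pafah1b3 and 0.21 to 0.84 for Pla2g7. PLM against JA ranged from -0.41 to 0.067 for Far1, -0.079 to 0.080 for Pafah1b1, -0.047 to 0.24 for Pafah1b3 and -1.27 to -0.63 for Pla2g7. The log2 ratio of Agps over Gnpat in SNI against JA ranged from -0.29 to 0.12 and in PLM against SNI from -0.56 to -0.15, that of Pafah1b2 over Pafah1b3 in PLM against SNI from -0.57 to -0.23, and that of Pla2g7 over Pafah2 in SNI against JA from 0.30 to 0.96. The cause of these changes was not tested. With 3 samples a group and no read depth, the 95% intervals are the measure of precision, and a difference that missed the threshold is not shown to be absent.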
